A study of Homo sapiens with 8 samples.

Results

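The effect of PAGE4 overexpression was examined in DU145 cells, an established human prostate cancer cell line. The members are the DU145 libraries, 4 of the 8 in the series, chosen by the cell line in their labels, and they form 2 pairs, each of cells with the PAGE4 construct against cells with the empty vector under the same treatment. The vector cells carried the empty TET vector (pLVX-TetOne-Puro). The PAGE4 cells carried the same lentiviral vector with the open reading frame of PAGE4 behind its doxycycline-inducible promoter and an HA tag at the N terminus. Both were puromycin-selected populations, and doxycycline was given to all of them before collection. One pair was treated with PBS and the other with H2O2 for 12 h. The dose is 200 mM per the labels. The study names a lower dose for another experiment of the same duration, so the dose is uncertain. Each condition is 1 library of total RNA, and the labels do not say that the pairs came from separate transductions. Every library of a construct may therefore derive from 1 transduced population, so that the p-values below cover no spread beyond these libraries. A difference set by the population that was transduced cannot be told apart from one set by PAGE4. The other 4 libraries are the same conditions in 22RV1 cells and are used only to show where DU145 cells differ.

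PAGE4 is a small, intrinsically disordered cancer-testis antigen of chromosome X that is found in the prostate, and it binds the AP-1 factor JUN and is phosphorylated by the kinases HIPK1 and CLK2. DU145 cells were derived from a brain metastasis, and grow as adherent epithelial cells. Cells of this kind keep a balance between junction proteins, keratins and basement membrane components that are typical of epithelia, and fibrous matrix proteins that are typical of mesenchymal cells.

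The total count was between 26124000 and 30107611 reads in the DU145 libraries. Of the 58828 genes in the table, 11906 averaged 100 normalized counts or more in DU145 cells, and these are called well-counted. The label was checked against marker genes. The epithelial markers EPCAM, CDH1, KRT7, KRT8, KRT18 and KRT19 together took 1862 to 2915 CPM (reads per 1000000 counted), the highest in PAGE4 cells with PBS, whereas KLK3, KLK2 and TMPRSS2, which mark androgen-responsive luminal cells, had at most 3 reads in any library. Fibroblast markers summed to 7.46 to 8.93 CPM, most of it COL1A1 (145 to 251 reads) and the next PDGFRB (11 to 53 reads), with DCN at 0 in every library. Leukocyte and endothelial markers summed to at most 1.06 and 0.995 CPM.

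PAGE4 itself, on chromosome X from 49829260 to 49834264 of GRCh38, had 1 read in each vector library, under the floor of 3 counts. It had 1001 reads in PAGE4 cells with PBS and 1431 with H2O2, or 941 and 1507 normalized counts. Against the floor of 3 counts in each vector library, PAGE4 was at least 338-fold higher with PBS and at least 478.8-fold higher with H2O2. The construct carries the open reading frame, and reads of the construct and of the endogenous gene cannot be told apart in these counts.

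Next, genes were called when they differed by more than 1.5-fold in the same direction in the PBS pair and in the H2O2 pair. Under this rule, 72 of the 11906 well-counted genes were called, 34 higher in PAGE4 cells (0.286% of the well-counted genes, PAGE4 included) and 38 lower (0.319%). The PBS pair alone had 328 genes over the fold limit and the H2O2 pair 275, so that the called genes were 21.95% of the first list and 26.2% of the second. Only 3 genes were over the limit in opposite directions. Over the well-counted genes other than PAGE4, the log2 fold changes of both pairs had a Pearson correlation of 0.31 and a Spearman correlation of 0.25. This correlation is across 11905 genes of the same transduced cells, and it is a description without a test. The SD of the log2 fold change was 0.24 in the PBS pair and 0.23 in the H2O2 pair, so the fold limit lies beyond the spread of most genes. In all 72 called genes, the 95% counting interval of the log2 fold change left out 0 in both pairs. These Clopper-Pearson intervals cover counting error only.

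Each gene was also tested over both pairs by quasi-likelihood in edgeR, with the treatment as a term. At a Benjamini-Hochberg adjusted p under 0.05, 251 genes rose with PAGE4 (2.11%) and 161 fell (1.35%), and 62 of the 72 called genes were among them. The verbs rose and fell below are used for genes that passed this test. It rests on 1 residual degree of freedom and on a spread shared by all genes. The prior degrees of freedom of the fit were infinite, so a gene's own disagreement between the pairs had no weight in its p. A small p is thus no sign that the pairs agree. SRXN1 passed by edgeR (adjusted p 2.91e-08) with log2 fold changes of 1.94 with PBS and 0.14 with H2O2. Without the treatment term no gene passed, with 21 at an unadjusted p under 0.05. DESeq2's Wald test called 74. GC content moved with the result in the PBS pair, where the log2 fold change had a Spearman correlation of 0.35 with the GC content of the gene over 10909 genes, against −0.08 in the H2O2 pair. The median log2 fold change with PBS was −0.06 for genes under 45% GC and 0.11 for genes of 55% or more. With this trend and that of transcript length removed, 63 genes were called, 57 of them among the 72, and 28 of 177 named genes moved by more than their counting error.

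**Figure D1:**
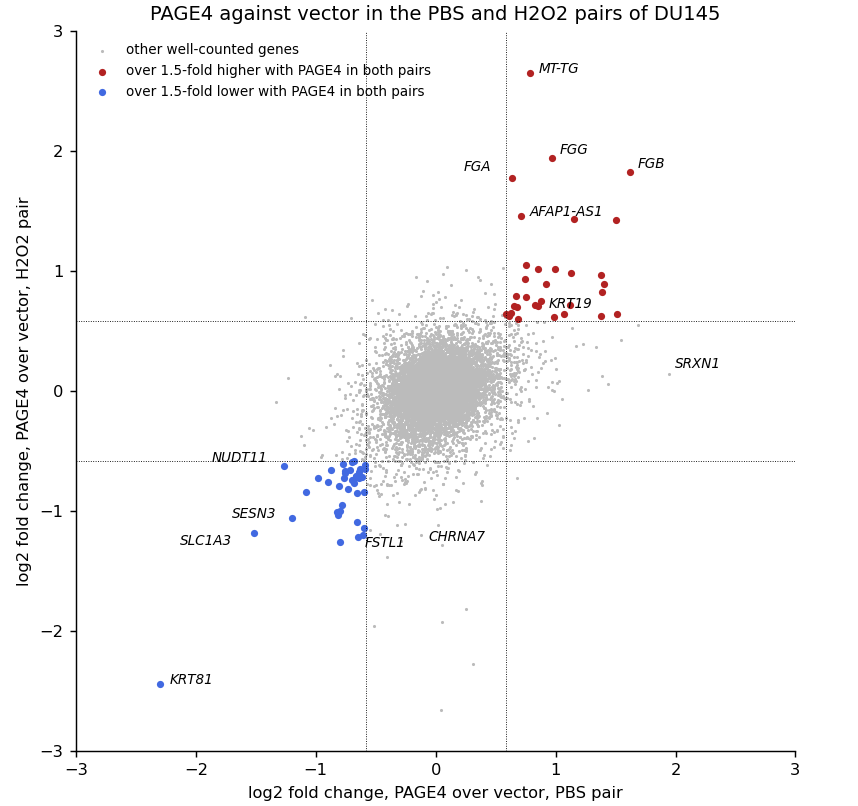
Log2 fold change of PAGE4 over vector cells in the PBS pair (horizontal axis) and in the H2O2 pair (vertical axis) for the well-counted genes, without PAGE4 and chromosome Y genes. Dotted lines mark 1.5-fold, and coloured points are the genes past it in both pairs, with MT-TG and the fibrinogen genes at the upper right and KRT81 alone at the lower left. MT-TG had only 2 reads in the vector library with H2O2.

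The fibrinogen genes were called higher together. Fibrinogen is the soluble precursor of fibrin, an acute-phase protein made mainly by the liver and by some epithelial tumour cells, and its chains are encoded by FGA, FGB and FGG, which lie side by side on chromosome 4. All of them rose with PAGE4, and they were the only called genes that lay within 100 kb of another called gene, with gaps of 10319 bases between FGB and FGA and 13392 bases between FGA and FGG in the GENCODE annotation of GRCh38. The 250 bases before their start sites are shown, from RefSeq (GRCh38.p14, chr4:154562730-154562979 on the plus strand for FGB, chr4:154590743-154590992 on the minus strand for FGA and chr4:154612657-154612906 on the minus strand for FGG), because the genes moved together and are known for shared upstream elements. In FGG the window lies inside the gene as GENCODE gives it, since that annotation also holds an earlier start. Capitals mark CTGGGAA, the core of the interleukin-6 response element, and ATTAAC, part of the binding site of the hepatocyte nuclear factor HNF1, each searched on both strands. The motifs did not overlap.
FGB: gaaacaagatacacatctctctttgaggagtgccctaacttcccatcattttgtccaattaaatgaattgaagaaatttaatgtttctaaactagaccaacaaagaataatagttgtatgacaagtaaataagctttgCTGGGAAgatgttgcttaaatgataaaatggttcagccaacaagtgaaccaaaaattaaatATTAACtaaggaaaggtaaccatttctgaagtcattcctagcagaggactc
FGA: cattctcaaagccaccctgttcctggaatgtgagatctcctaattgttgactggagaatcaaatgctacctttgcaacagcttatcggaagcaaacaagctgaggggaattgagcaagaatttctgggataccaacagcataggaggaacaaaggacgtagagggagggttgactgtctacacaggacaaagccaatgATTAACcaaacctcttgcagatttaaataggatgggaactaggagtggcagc
FGG: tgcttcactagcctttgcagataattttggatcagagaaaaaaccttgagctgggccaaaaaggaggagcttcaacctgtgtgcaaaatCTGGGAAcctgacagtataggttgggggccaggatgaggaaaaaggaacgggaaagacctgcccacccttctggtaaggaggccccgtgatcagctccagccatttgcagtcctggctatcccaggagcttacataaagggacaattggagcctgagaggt
CTGGGAA was found in FGB, 112 to 106 bases before the start, and in FGG, 161 to 155 bases before it, and in 9.3% of all 27305 promoters of the same length. ATTAAC was found in FGB at 51 to 46 bases and in FGA at 52 to 47 bases, and in 6.22% of all promoters. A match is a description of the letters and not a site or a cause.

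The normalized count of FGB, the beta chain, was 183 in vector cells and 563 in PAGE4 cells with PBS, and 79.8 and 284 with H2O2. Its log2 fold change was 1.62 with PBS (95% counting interval 1.39 to 1.86) and 1.83 with H2O2 (1.46 to 2.22). For FGG, the gamma chain, the normalized counts were 252 in vector cells and 495 in PAGE4 cells with PBS, and 113 and 438 with H2O2, and the log2 fold changes were 0.97 with PBS (95% counting interval 0.76 to 1.19) and 1.95 with H2O2 (1.64 to 2.27). FGA, the alpha chain, had 128 in vector cells and 199 in PAGE4 cells with PBS, and 30.4 and 105 with H2O2, and log2 fold changes of 0.64 with PBS (95% counting interval 0.32 to 0.96) and 1.77 with H2O2 (1.18 to 2.44). All 3 genes were lower with H2O2 than with PBS in vector cells and higher in PAGE4 cells than in vector cells under both treatments. The counting intervals of the pairs did not overlap for FGA and FGG, whose fold was larger with H2O2, and did overlap for FGB. The adjusted p of edgeR was 9.55e-19 for FGB, 5.57e-15 for FGG and 0.00128 for FGA. STAT3, the factor through which interleukin-6 acts, had log2 fold changes of −0.01 with PBS and −0.02 with H2O2 and its target SOCS3 0.03 with PBS and −0.09 with H2O2, and neither passed the test. CEBPB, an acute-phase factor that is also in the amino acid response list below, rose with log2 fold changes of 0.73 with PBS and 0.37 with H2O2. STAT3 and SOCS3 were looked up after the values of the fibrinogen genes were seen.

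Epithelial surface and junction genes were mostly higher in PAGE4 cells. Of 25 well-counted genes in the list of epithelial junction and identity genes, 17 were higher in both pairs and 3 lower in both, against 31.5% and 27.1% of all well-counted genes. Of these genes, 9 passed the edgeR test, all of them higher, of which CLDN7 was past 1.5-fold in both pairs. The median log2 fold change of the list was 0.33 with PBS and 0.20 with H2O2, and 0.25 and 0.22 with the GC and length trends removed, against medians of 0.00 and 0.01 over all well-counted genes. CLDN7, a claudin of tight junctions, had 1476 in vector cells and 2287 in PAGE4 cells with PBS, and 1821 and 2852 with H2O2. EPCAM, an epithelial adhesion molecule, had 1840.3 in vector cells and 2516 in PAGE4 cells with PBS, and 2133 and 2975 with H2O2. For CDH1, the E-cadherin of adherens junctions, the counts were 1382 in vector cells and 2123 in PAGE4 cells with PBS, and 1571 and 1991 with H2O2. In each of these genes both PAGE4 libraries lay above both vector libraries. CDH3, which encodes P-cadherin, rose with log2 fold changes of 0.53 with PBS and 0.36 with H2O2. ESRP1, a splicing factor of epithelial cells, rose with 0.69 with PBS and 0.52 with H2O2. The membrane protease matriptase, ST14, rose with 0.71 with PBS and 0.41 with H2O2, and the genes of its inhibitors, SPINT1 with 0.43 with PBS and 0.20 with H2O2 and SPINT2 with 0.48 with PBS and 0.33 with H2O2. The mesenchymal list was also mostly higher, with 6 of 9 well-counted genes higher in both pairs and 2 lower, and medians of 0.15 with PBS and 0.10 with H2O2. In that list 0 passed the edgeR test (2 at an unadjusted p under 0.05) or DESeq2's, a count near the 2.11% and 1.35% of all well-counted genes. ZEB1, a repressor of CDH1, had log2 fold changes of −0.25 with PBS and −0.33 with H2O2 (adjusted p 0.162 by edgeR), and VIM, the intermediate filament of mesenchymal cells, 0.08 with PBS and 0.03 with H2O2.

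Called genes of epithelial cells outside that list included SCEL, which encodes sciellin of the cornified envelope, with 84.5 in vector cells and 225 in PAGE4 cells with PBS, and 87.1 and 162 with H2O2; BNC1, a basonuclin of basal keratinocytes, with 289 in vector cells and 605 in PAGE4 cells with PBS, and 628 and 981 with H2O2; and GALNT3, a glycosyltransferase that starts O-glycans, with 92.8 in vector cells and 202 in PAGE4 cells with PBS, and 127 and 209.6 with H2O2. FAM83B rose from 52.0 to 98.7 normalized counts with PBS and from 87.1 to 162 with H2O2, and C1orf116 from 176 to 461 normalized counts with PBS and from 341 to 605 with H2O2. The genes of this paragraph were grouped after their values were seen and without a test of the group. Other called genes of epithelial cells went the other way, among them KRT81 and SLPI, which are described below.

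Keratins moved in opposite directions. KRT19, a keratin of simple epithelia, had 4029.6 in vector cells and 7395 in PAGE4 cells with PBS, and 3246 and 5459 with H2O2, with log2 fold changes of 0.88 with PBS (95% counting interval 0.82 to 0.93) and 0.75 with H2O2 (0.69 to 0.81). KRT8, its partner type, rose with 0.42 with PBS and 0.27 with H2O2, whereas KRT18 (0.30 with PBS and 0.13 with H2O2) and KRT7 (0.47 with PBS and −0.04 with H2O2) did not pass the test. KRT81, a type II hair keratin on chromosome 12 from 52285913 to 52291534, had the largest fall of all well-counted genes called. Its count was 792 in vector cells and 161 in PAGE4 cells with PBS, and 879 and 161 with H2O2, and it fell by 2.30 on the log2 scale with PBS and by 2.44 with H2O2, with counting intervals of −2.55 to −2.06 and −2.71 to −2.20. Both vector libraries were thus more than 4 times above both PAGE4 libraries, and H2O2 made little difference to either. KRT86 is nearly identical to KRT81, and how the authors' counting split reads between them is not stated. KRT86 had 98.4 in vector cells and 135 in PAGE4 cells with PBS, and 112 and 96.9 with H2O2, so that it did not fall with KRT81. In the list of keratins, 1 of 8 well-counted members was called higher and 1 lower, against 0.286% and 0.319% of all well-counted genes.

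Genes of the extracellular matrix were divided as well, with 13 of 31 well-counted members passing the edgeR test, 6 higher and 7 lower, against 2.11% and 1.35% of all well-counted genes, and 9 passing DESeq2's. FBLN1, an elastic fibre and basement membrane protein, had 4212 in vector cells and 2532 in PAGE4 cells with PBS, and 2598 and 1472 with H2O2. LAMA1, the alpha chain of laminin-111, had 2351 in vector cells and 1463 in PAGE4 cells with PBS, and 1111 and 653 with H2O2. FSTL1, a secreted glycoprotein that binds BMP ligands, had 979 in vector cells and 623 in PAGE4 cells with PBS, and 611 and 262 with H2O2. These 3 genes were called lower, with log2 fold changes of −0.73 with PBS and −0.82 with H2O2 for FBLN1, −0.68 with PBS and −0.77 with H2O2 for LAMA1 and −0.65 with PBS and −1.22 with H2O2 for FSTL1, and in FSTL1 the intervals of both pairs lay apart. All 3 were lower with H2O2 in vector cells, and PAGE4 cells with H2O2 held the lowest value of each. FN1, encoding fibronectin, fell with −0.61 with PBS and −0.51 with H2O2, NID1, encoding nidogen that links laminin to collagen IV, with −0.42 with PBS and −1.04 with H2O2, the fibrillin gene FBN1 with −0.47 with PBS and −0.63 with H2O2, and COL12A1 with −0.13 with PBS and −0.83 with H2O2. On the other side, TNC, which encodes tenascin-C, had 421 in vector cells and 762 in PAGE4 cells with PBS, and 1962 and 3206 with H2O2, and EFEMP1, which encodes fibulin-3, had 1578 in vector cells and 2417 in PAGE4 cells with PBS, and 791 and 1219.8 with H2O2. Both were called higher, with 0.85 with PBS and 0.71 with H2O2 for TNC and 0.62 with PBS and 0.62 with H2O2 for EFEMP1. TNC was also higher with H2O2 in either population, whereas EFEMP1 was lower. LAMB3, the beta chain of the epithelial laminin-332, rose with 0.66 with PBS and 0.47 with H2O2, and LAMA3, its alpha chain, had 0.16 with PBS and 0.26 with H2O2 and did not pass. ITGB4, the integrin subunit that binds laminin-332, rose with 0.63 with PBS and 0.19 with H2O2. Another integrin subunit gene, ITGA6, had 0.06 with PBS and −0.07 with H2O2 and did not pass. COL6A1 rose with 0.36 with PBS and 0.34 with H2O2 and COL18A1 with 0.35 with PBS and 0.17 with H2O2. Members that fell included fibronectin, fibrillin, nidogen and the laminin-111 chain. Members that rose included the laminin-332 beta chain, and also tenascin-C, fibulin-3, COL6A1 and COL18A1.

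**Figure D2:**
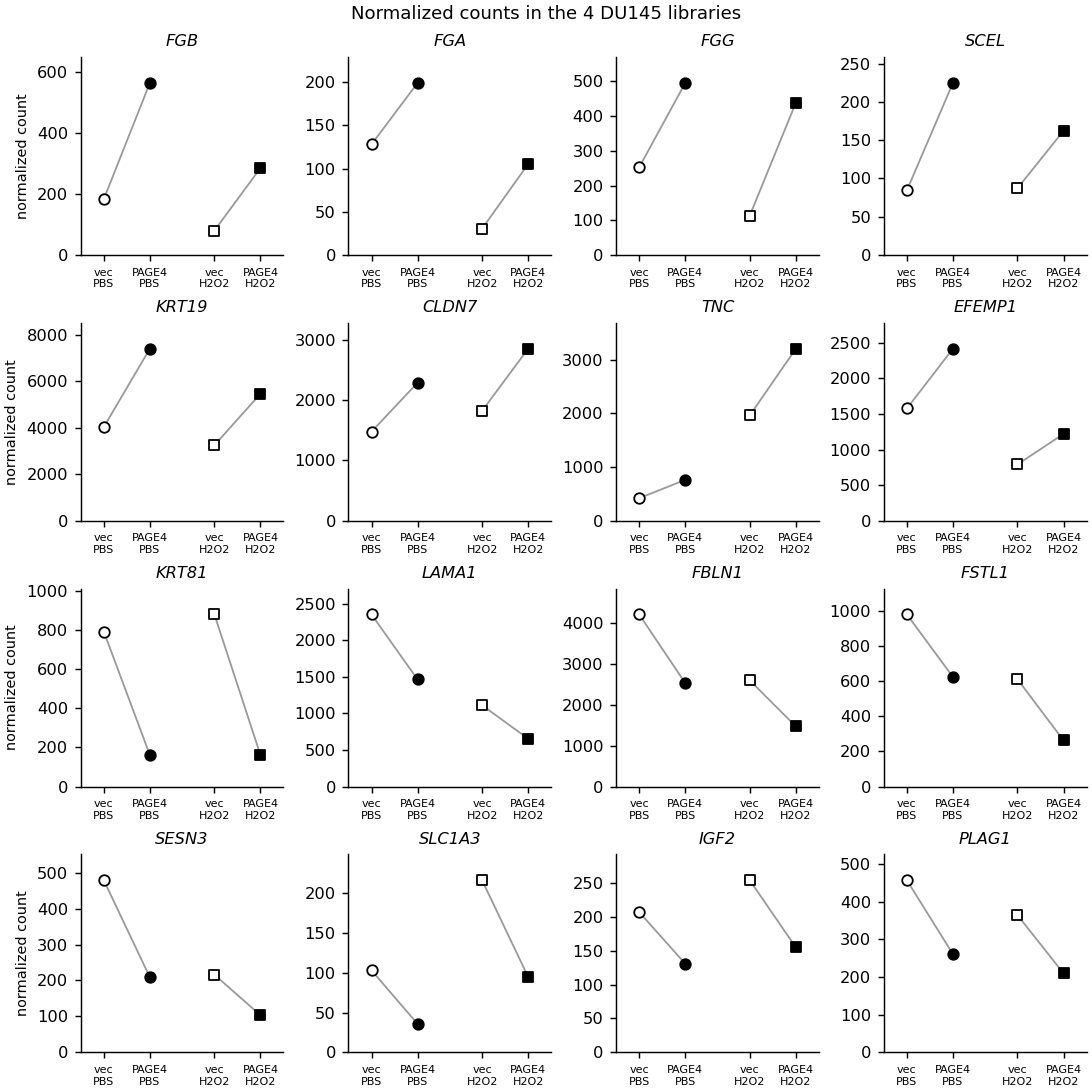
Normalized counts (vertical axes, each from 0) of 16 called genes in the DU145 libraries. Open symbols are vector cells and filled symbols PAGE4 cells, circles with PBS and squares with H2O2, and a line joins each pair. In the upper 2 rows every filled symbol is above its open symbol, and in the lower 2 rows below it.

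Of 10 well-counted matrix proteases and inhibitors, 5 were higher in both pairs and 3 lower, and 3 rose by the edgeR test, against 2.11% of all well-counted genes. PLAU, the urokinase activator, had 1419 in vector cells and 2266 in PAGE4 cells with PBS, and 2621 and 3668 with H2O2, and its receptor gene PLAUR 688 in vector cells and 966 in PAGE4 cells with PBS, and 3309.7 and 4186 with H2O2, and both rose. ADAM8, a membrane metalloprotease, rose with log2 fold changes of 1.17 with PBS and 0.37 with H2O2, its interval with H2O2 (−0.01 to 0.76) including 0. No gene of this list was past 1.5-fold in both pairs, which in a list of this size is near the 0.286% and 0.319% of all well-counted genes.

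Called lower genes that are known from neurons or glia are described next, grouped after their values were seen and without a test of the group. SLC1A3, a glial glutamate transporter, had 103 in vector cells and 35.7 in PAGE4 cells with PBS, and 216 and 94.8 with H2O2. DCLK1, a microtubule-associated kinase, had 44.5 in vector cells and 25.4 in PAGE4 cells with PBS, and 663 and 276 with H2O2. NPTX2, a secreted pentraxin of synapses, had 215 in vector cells and 116 in PAGE4 cells with PBS, and 247 and 145 with H2O2. In each of them the PAGE4 library was lower than its vector library, and in DCLK1 the values with H2O2 were higher in both populations, by more than the constructs differed. SV2A, a synaptic vesicle protein, fell from 318 to 188 normalized counts with PBS and from 302 to 191 with H2O2. SYT3, a synaptotagmin, fell from 214 to 132 normalized counts with PBS and from 145 to 86.4 with H2O2, and NELL2, a secreted neuronal protein, from 467 to 273 normalized counts with PBS and from 268 to 175 with H2O2. LRP4, an agrin receptor, had log2 fold changes of −0.82 with PBS and −1.03 with H2O2, and PCDHA3, a protocadherin whose last exons are shared by its whole cluster so that its reads are uncertain, −0.78 with PBS and −0.95 with H2O2. SULT4A1 (−0.66 with PBS and −0.72 with H2O2) and TSPAN7 (−0.59 with PBS and −0.65 with H2O2) were past the fold limit without passing the edgeR test. The list of neuroendocrine and neuronal genes holds none of these genes and had 3 of 8 well-counted members higher in both pairs and 3 lower. Within that list, CNTN1, a contactin, fell with −0.29 with PBS and −0.33 with H2O2. SNCG and NEURL1, which are also known from neurons, were called higher.

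Growth factors, their receptors and signalling genes were called on both sides. IGF2, an insulin-like growth factor, had 207 in vector cells and 131 in PAGE4 cells with PBS, and 254 and 155 with H2O2. PLAG1, a zinc finger factor known to activate IGF2, had 457 in vector cells and 260.4 in PAGE4 cells with PBS, and 364 and 209.6 with H2O2. HMGA2, an architectural chromatin protein, had 48.3 in vector cells and 126 in PAGE4 cells with PBS, and 328 and 507 with H2O2, so that it rose while PLAG1 and IGF2 fell. BMP4, a ligand of the BMP family, had 162 in vector cells and 244 in PAGE4 cells with PBS, and 78.7 and 123 with H2O2, and it was called at 1.5-fold but did not pass the edgeR test (adjusted p 0.103). MET, the receptor of hepatocyte growth factor, rose with 0.63 with PBS and 0.48 with H2O2. DKK1, a secreted WNT inhibitor, fell with −0.46 with PBS and −0.78 with H2O2 and SFRP1, another, with −0.32 with PBS and −0.48 with H2O2, whereas the WNT receptor ROR1 rose with 0.90 with PBS and 0.57 with H2O2. Among receptors coupled to G proteins, F2RL1, the protease-activated receptor PAR2, had 542 in vector cells and 863 in PAGE4 cells with PBS, and 894 and 1552 with H2O2, and S1PR3, a receptor of sphingosine 1-phosphate, had 609.7 in vector cells and 308 in PAGE4 cells with PBS, and 259 and 157 with H2O2. F2RL1 was called higher and S1PR3 lower. PTGER4, a prostaglandin E2 receptor, had log2 fold changes of 0.68 with PBS and 0.60 with H2O2 and did not pass the edgeR test (adjusted p 0.0608). PRKCH, a protein kinase C isoform, fell with −0.61 with PBS and −1.20 with H2O2, and RGL1, an effector of RAS-like proteins, with −0.76 with PBS and −0.73 with H2O2.

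Of 17 well-counted NF-kB and inflammatory cytokine genes, 12 were higher in both pairs and 1 lower, against 31.5% and 27.1% of all well-counted genes. By the edgeR test 5 rose and 0 fell, against 2.11% and 1.35% of all, and DESeq2 called 0. The median log2 fold change was 0.21 with PBS and 0.18 with H2O2. NFKBIA, the inhibitor that NF-kB induces, rose with 0.35 with PBS and 0.27 with H2O2, the adhesion molecule ICAM1 with 0.52 with PBS and 0.18 with H2O2, the subunits NFKB2 with 0.41 with PBS and 0.15 with H2O2 and RELB with 0.67 with PBS and 0.15 with H2O2, and TNFAIP3, which encodes the feedback inhibitor A20, with 0.02 with PBS and 0.83 with H2O2. In TNFAIP3 the rise was in the H2O2 pair alone, from 560 to 994 normalized counts, against 128 and 129.7 with PBS. Of called genes outside that list, FADD, the adaptor of death receptors, had 258 in vector cells and 511 in PAGE4 cells with PBS, and 432 and 662 with H2O2. CD70, a ligand of the TNF family, had 208 in vector cells and 351 in PAGE4 cells with PBS, and 102 and 212 with H2O2. SLPI, a secreted protease inhibitor of epithelia, was called lower, with 707 in vector cells and 432 in PAGE4 cells with PBS, and 886 and 560.4 with H2O2. In antigen presentation genes, 7 of 13 were lower in both pairs and 1 was higher, with HLA-DMA, which loads peptides on class II molecules, called lower (−0.64 with PBS and −0.68 with H2O2) and HLA-B lower by the edgeR test (−0.11 with PBS and −0.51 with H2O2). HLA genes share reads with one another, so their values are uncertain.

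Stress response genes were examined because the comparison addresses how PAGE4 cells stand oxidative stress. Of 16 well-counted heat shock genes, 13 were higher in both pairs and 2 lower, against 31.5% and 27.1% of all, with a median of 0.10 with PBS and 0.19 with H2O2. By the edgeR test 5 rose, against 2.11% of all, and DESeq2 called 1. HSPA1B had 1340.1 in vector cells and 1800.4 in PAGE4 cells with PBS, and 5086 and 7002 with H2O2, DNAJB1 rose with 0.21 with PBS and 0.29 with H2O2 and HSP90AA1 with 0.16 with PBS and 0.28 with H2O2. HSPA6, an inducible HSP70 that is called but is not in that list, had 30.6 in vector cells and 51.7 in PAGE4 cells with PBS, and 997 and 1906 with H2O2. In vector cells, HSPA6 was 5.0 higher with H2O2 on the log2 scale, and PAGE4 cells had the higher value under both treatments. HSPA1A and HSPA1B are near-identical and HSPA6 is similar to them, and the split of reads between them is uncertain. In the amino acid response list of ATF4 targets, 15 of 25 were higher in both pairs and 2 lower. By the edgeR test 5 of the 25 rose, against 2.11% of all, and DESeq2 called 3. Those that rose were DDIT4 (0.91 with PBS and 0.25 with H2O2), TRIB3 (0.68 with PBS and 0.29 with H2O2), ASNS (0.37 with PBS and 0.29 with H2O2), SLC3A2 (0.36 with PBS and 0.13 with H2O2) and CEBPB. These 5 genes had the larger change with PBS, the pair with the GC trend. With that trend removed, the PBS value of DDIT4 was 0.79 and that of TRIB3 0.55.

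Metallothioneins bind zinc and copper and are induced by metals and oxidants. In this list, 4 of 6 well-counted members were higher in both pairs and 0 lower. MT2A had 5989.7 in vector cells and 9165 in PAGE4 cells with PBS, and 8197 and 12169 with H2O2, just under the fold limit with H2O2, and MT1E had 3374 in vector cells and 4566 in PAGE4 cells with PBS, and 3768 and 6125 with H2O2, under it with PBS. MT1X rose with 0.03 with PBS and 0.77 with H2O2. The genes of this family are similar in sequence, so that reads may be split between them. Of 28 well-counted NRF2 and glutathione genes, 10 were higher in both pairs and 15 lower, that is 35.7% and 53.6%, against 31.5% and 27.1% of all well-counted genes. The medians were −0.02 with PBS and −0.01 with H2O2. By the edgeR test 2 rose and 1 fell, against 2.11% and 1.35% of all well-counted genes, and DESeq2 called 0. SRXN1, which reduces overoxidized peroxiredoxins, had 142 in vector cells and 547 in PAGE4 cells with PBS, and 375 and 414 with H2O2, so that its difference was in the PBS pair. FTH1, the ferritin heavy chain, had 13740.0 in vector cells and 26693 in PAGE4 cells with PBS, and 20436 and 24496 with H2O2, and AKR1C1, an aldo-keto reductase, 374 in vector cells and 231 in PAGE4 cells with PBS, and 501 and 407 with H2O2. SOD1, a superoxide dismutase, had 7114 in vector cells and 6949 in PAGE4 cells with PBS, and 6192 and 7431 with H2O2, and 0 of 18 well-counted enzymes that remove superoxide or peroxide passed the edgeR test (3 at an unadjusted p under 0.05) or DESeq2's, again near the background. SESN3, a sestrin that restrains mTORC1 and is induced by FOXO factors, was called lower with 479 in vector cells and 209 in PAGE4 cells with PBS, and 216 and 103 with H2O2.

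The study relates PAGE4 to the MAPK cascades. Of 23 well-counted kinases of the JNK and p38 cascade, 8 were higher in both pairs and 4 lower, and 0 passed the fold rule, edgeR (4 at an unadjusted p under 0.05) or DESeq2. The medians were 0.04 with PBS and 0.03 with H2O2. In the RAS to ERK cascade, 5 of 25 were higher and 9 lower, and again 0 passed any of these (6 at an unadjusted p under 0.05 by edgeR). The medians there were −0.02 and −0.01. With 2.11% and 1.35% of all well-counted genes passing edgeR, and 0.286% and 0.319% the fold rule, a count of 0 in lists of this size is near the background. For the direction counts in this paragraph, the shares over all well-counted genes were 31.5% higher in both pairs and 27.1% lower. The widest values among members of the same direction were −0.20 with PBS and −0.39 with H2O2 for MAP3K6, −0.37 with PBS and −0.15 with H2O2 for MAP3K4 and −0.40 with PBS and −0.28 with H2O2 for KSR1, a scaffold of the ERK cascade. Transcript counts do not measure phosphorylation. Among AP-1 factors, JUN had 597 in vector cells and 1042 in PAGE4 cells with PBS, and 4268 and 4719 with H2O2 and rose, the rise being in the PBS pair (0.80 with PBS and 0.15 with H2O2 on the log2 scale), and its counts were higher with H2O2 in both populations. In the early response list, 7 of 17 were higher in both pairs and 3 lower. EGR1, a factor downstream of ERK, fell from 7646 to 5773 normalized counts with PBS and from 6083 to 3526 with H2O2, whereas IER5 rose with 0.31 with PBS and 0.40 with H2O2 and KLF6 with 0.39 with PBS and 0.17 with H2O2. DUSP9, a phosphatase of ERK, fell from 194 to 90.3 normalized counts with PBS and from 128 to 93.8 with H2O2, and DUSP4 rose with 0.17 with PBS and 0.43 with H2O2. The kinases HIPK1 and CLK2 that act on PAGE4 belong to a list of 7 well-counted genes, of which 1 was higher in both pairs and 2 lower, and CLK2 had −0.18 with PBS and −0.08 with H2O2.

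**Figure D3:**
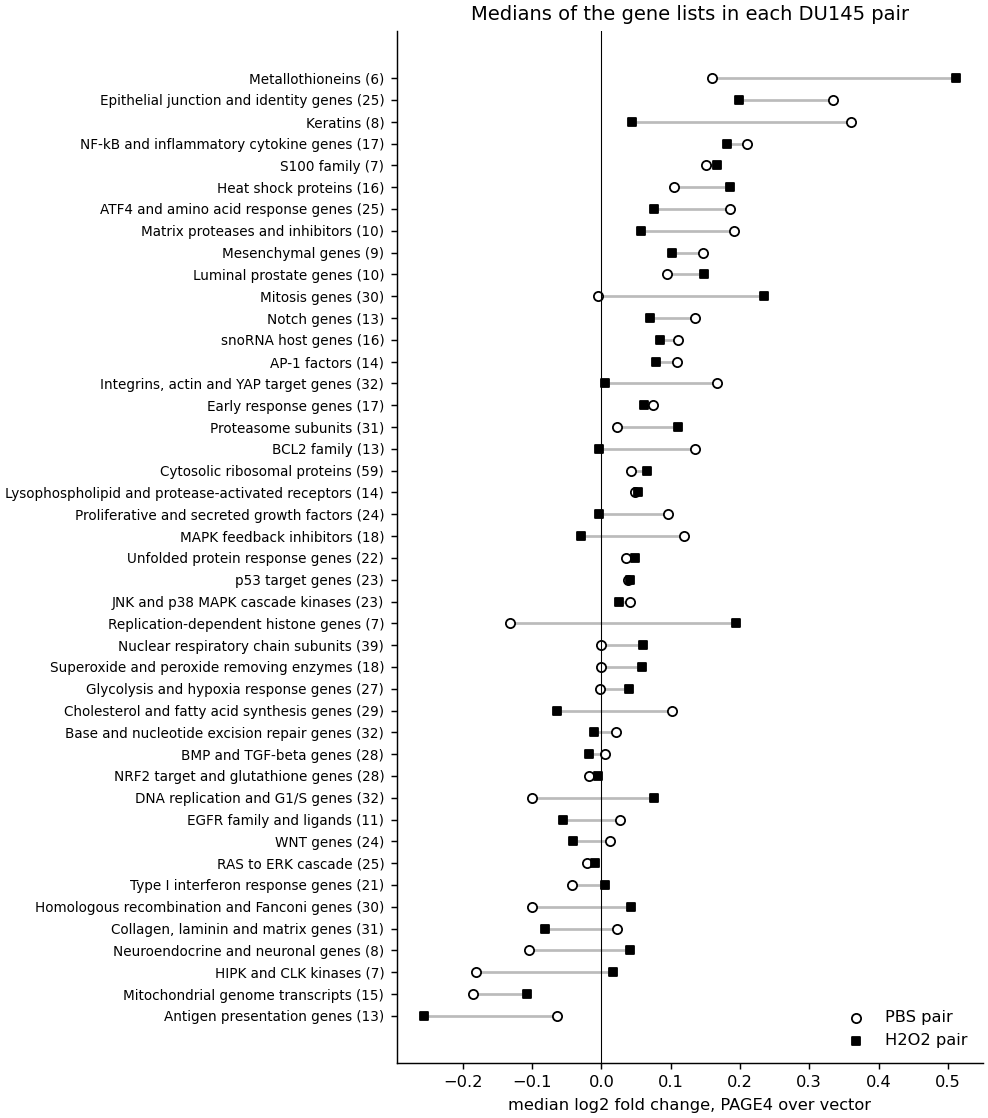
Median log2 fold change of PAGE4 over vector cells in the PBS pair (open circles) and in the H2O2 pair (filled squares) for each gene list with at least 6 well-counted members other than the genes the study names, whose number is in parentheses, ordered by the sum of both medians. Metallothioneins, epithelial junction genes, keratins and NF-kB genes are at the top, antigen presentation genes and mitochondrial genome transcripts at the bottom, and the mitosis list differs between the pairs (0.00 and 0.24).

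The called genes also differed in how they stood to H2O2. Among the 33 called higher genes other than PAGE4, 11 were more than 1.5-fold higher with H2O2 in vector cells and 10 lower, that is 33.3% and 30.3%, against 16.03% and 16.75% of all well-counted genes. Among the 38 called lower genes, 3 were higher with H2O2 and 14 lower, that is 7.89% and 36.8%. Both vector libraries enter this fold, and each also enters the PAGE4 fold of its own pair, so the values are given side by side and were not tested. The called higher genes had a median GC content of 51.5% and the called lower genes of 47.4%, against 47.8% over all, for the 31 and 35 genes matched to the annotation, and their median transcript lengths were 2861 and 4804 bases, against 4021.5. Their expression was low, since the normalized count averaged over libraries had a median of 325 in the higher genes, 184 in the lower genes and 911 over all well-counted genes. Counting error is thus larger in the called genes than in most. In 9 of the 71 called genes other than PAGE4 the intervals of the pairs did not overlap, that is 12.7%, against 23.3% of all well-counted genes. This lower share was partly fixed beforehand, since the rule asks for the same direction in both pairs and lower counts widen the intervals. It is no evidence that the pairs agree. The fold was larger with PBS in HMGA2, TMEM160, C1orf116, BNC1 and KRT19, and larger with H2O2 in FGA, FGG, AFAP1-AS1 and FSTL1. Just inside the fold limit were GPR63 (−0.68 with PBS and −0.59 with H2O2), TSPAN7 and GUCY1B3 (−0.59 with PBS and −0.62 with H2O2), and just outside it RASD1 (0.85 with PBS and 0.58 with H2O2) and COL8A2 (−0.60 with PBS and −0.57 with H2O2).

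Finally, the PAGE4 effect of DU145 cells was set against that of 22RV1 cells, another prostate cancer line. All 8 libraries were fitted with edgeR with a term for each pair, and the difference of the PAGE4 effects was tested. It passed at an adjusted p under 0.05 in 476 of 13840 genes (3.44%), and in 18 of the 72 called genes. The called genes were picked by their fold in the same DU145 libraries that enter this difference. Their larger share was thus partly fixed beforehand and is no evidence of effects particular to DU145 cells. Of the called genes, 45 averaged 100 normalized counts or more in 22RV1 cells. Of these, 17 moved in the same direction in both 22RV1 pairs, 19 in the opposite direction in both, and 9 in neither way. PAGE4 itself is among the 45 and among the 17. These direction counts were not set against all genes and were not tested. KRT19 had log2 fold changes of −0.40 with PBS and −0.12 with H2O2 in 22RV1 cells, against 0.88 with PBS and 0.75 with H2O2 in DU145 cells (adjusted p of the difference 5.23e-05). F2RL1 had −0.34 with PBS and −0.69 with H2O2 in 22RV1 cells (adjusted p 0.000406) and DHRS3, a retinal reductase that rose in DU145 cells with 1.13 with PBS and 0.98 with H2O2, had −0.88 with PBS and −0.44 with H2O2 (adjusted p 0.000369). Among the epithelial list, the difference passed for CDH1 (adjusted p 0.00835), ESRP1 (0.00386) and ST14 (0.00279), and did not for EPCAM (0.348) and CLDN7 (0.052). MT2A had −0.63 with PBS and −0.56 with H2O2 and MT1E −1.11 with PBS and −0.74 with H2O2 in 22RV1 cells, and their differences passed as well (adjusted p 6.11e-06 and 1.47e-05). On the lower side, NELL2 had 1.32 with PBS and 1.26 with H2O2 in 22RV1 cells (adjusted p 5.66e-07). S1PR3 was lower in both lines and by more in 22RV1 cells, with −3.13 with PBS and −2.83 with H2O2 there. KRT81 was weakly expressed in 22RV1 cells, with a mean normalized count of 7.68.

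**Figure D4:**
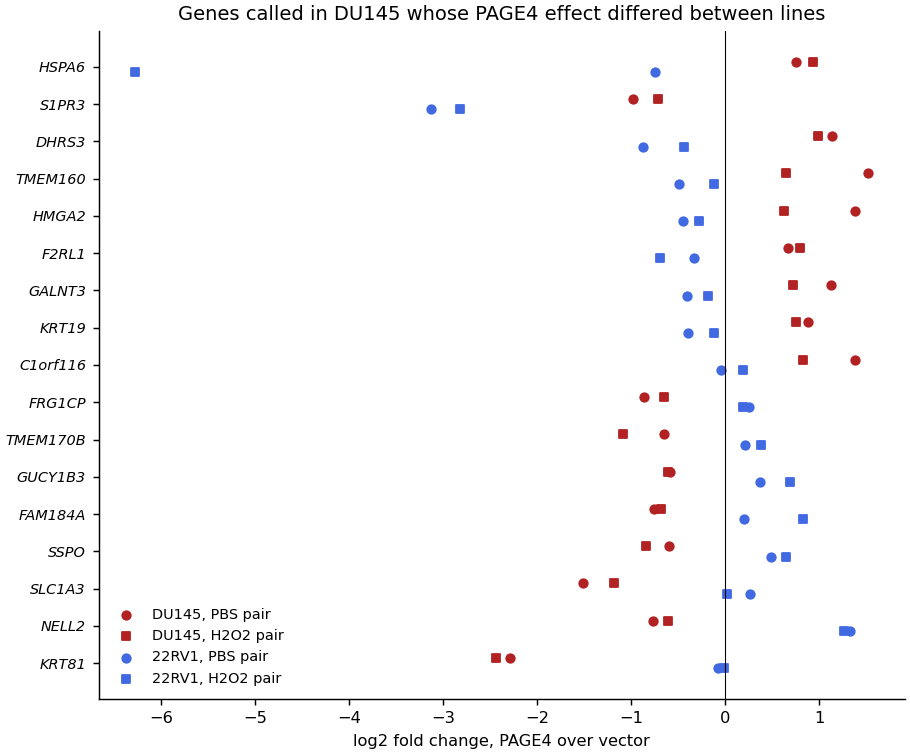
Log2 fold change of PAGE4 over vector cells for 17 of the 18 called genes whose PAGE4 effect differed between DU145 cells (red) and 22RV1 cells (blue), circles for the PBS pair and squares for the H2O2 pair. Most have opposite signs in the lines, S1PR3 is on the same side in both, and HSPA6 in the H2O2 pair of 22RV1 cells lies farthest from 0, at −6.28.

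Of 16 genes that the study names, 9 were well-counted in DU145 cells, and 5 of these were called, BMP4 and EFEMP1 higher and IGF2, FBLN1 and FSTL1 lower, against 0.286% and 0.319% of all well-counted genes. The study picked 11 of the 16 from genes that differed with PAGE4 in these libraries, so that this count was partly fixed beforehand and is not independent evidence. In DU145 xenograft tumours, the study reports by quantitative PCR that FBLN1, F2R and ACTA2 were increased with PAGE4. FBLN1 was lower here in both pairs, in cultured cells and by RNA-seq, so the settings differ. RASSF2, a RAS-binding tumour suppressor, had 525 in vector cells and 392 in PAGE4 cells with PBS, and 234 and 143 with H2O2 and fell. CHRNA7, a nicotinic receptor subunit, had 121 in vector cells and 111 in PAGE4 cells with PBS, and 199 and 86.4 with H2O2, and F2R, the thrombin receptor PAR1, 383 in vector cells and 377 in PAGE4 cells with PBS, and 226 and 366 with H2O2. The values of CHRNA7 and F2R lay apart in the H2O2 pair and close together in the PBS pair, and neither passed the edgeR test. The other 7 (EPHA8, TBX1, WNT5A, NOX1, GHRL, PELI2 and ACTA2) had means under 100. NOX1, a NADPH oxidase, had 18.6 and 11.3 normalized counts in vector and PAGE4 cells with PBS and 42.0 and 16.9 with H2O2, and ACTA2, the smooth muscle actin, 44.5 and 59.2 normalized counts in vector and PAGE4 cells with PBS and 6.30 and 25.3 with H2O2. At these counts the fold of a pair rests on few reads, and no direction was read from it.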

How the data were processed

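RNA-seq libraries of vector and PAGE4 populations of DU145 cells, given PBS or H2O2, were analysed, 1 per condition. Per the labels, the authors mapped reads with HISAT2 2.1.0 to GRCh38 and deposited raw counts per gene symbol from featureCounts 1.6.0, and whether these counts used strand is not given in the sources used here. Counts were divided by DESeq2 size factors of the 4 DU145 libraries, and a pseudocount of 0.5 was added before log2 fold changes were taken. Genes averaging 100 normalized counts or more were used, to limit counting error against the fold limit of 1.5. A single library of such a gene can still hold few reads. edgeR 4.0.16 (R 4.3.3) with TMM factors tested PAGE4 with treatment as an additive term, and the difference between lines with a term for each pair. Adjusted p-values are Benjamini-Hochberg values over all genes tested. DESeq2 1.42.0 was an alternative. The edgeR test and the fold rule, but not DESeq2's test, were also run on simulated counts drawn with the spread of the main fit. The simulation held no difference between transduced populations. Coordinates, GC content and transcript length are from GENCODE release 44 on GRCh38.

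The genes given by name are PAGE4, the 15 highest and 15 lowest called genes by mean log2 fold change (without chromosome Y genes), in each gene list the called members or up to 3 with the largest change, and the genes the study names. Further called genes, list members that passed the edgeR test, and STAT3, SOCS3, VIM, LAMA3, ITGA6, KRT7, KRT18, KRT86, AFAP1, RASD1 and COL8A2 were named after their values were seen. The results of some genes that this rule names are not reported here. The members and the gene lists were chosen with earlier results of these data known. The columns of 22RV1 cells were used for the comparison between lines and for the alternatives with size factors or a fit of all 8 libraries.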

Additional observations from a re-analysis of the deposited data

Results flagged for a closer look

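A set of 18 called genes was singled out because the test of the difference between the PAGE4 effects in DU145 and 22RV1 cells passed at an adjusted p under 0.05 by edgeR. The genes were called by their fold in the same DU145 libraries that enter this difference, so their number was partly fixed beforehand. Values are given for 17 of them. The fitted difference is DU145 minus 22RV1 on the log2 scale. Where the DU145 effect was an increase, it was 6.85 for HSPA6, 1.74 for DHRS3, 1.44 for TMEM160, 1.31 for HMGA2, 1.27 for F2RL1, 1.24 for GALNT3, 1.10 for KRT19 and 1.04 for C1orf116. Where it was a decrease, the difference was −0.95 for FRG1CP, −1.08 for TMEM170B, −1.09 for GUCY1B3, −1.20 for FAM184A, −1.25 for SSPO, −1.44 for SLC1A3, −1.97 for NELL2 and −2.31 for KRT81. S1PR3, a decrease in both lines, had 2.15, the 22RV1 decrease being larger. The value of HSPA6 rests on the H2O2 pair of 22RV1 cells, with 2079 normalized counts in vector cells and 26.3 in PAGE4 cells. Their adjusted p-values ranged from 5.66e-07 (NELL2 and HSPA6) to 0.047 (FRG1CP).

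In addition, 3 genes were over 1.5-fold in opposite directions in the PBS and H2O2 pairs, a difference that was not tested. ESPN, an actin-bundling protein, had log2 fold changes of 0.68 with PBS and −0.72 with H2O2. AAMDC had −1.09 with PBS and 0.61 with H2O2, and CTD-3014M21.1, which was not matched to the annotation, −0.70 with PBS and 0.61 with H2O2. Their raw counts were 72 to 184 for the first, 72 to 156 for AAMDC and 61 to 223 for the last.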

How the results depend on the processing

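With 1 library per condition, the fold rule has no replicate check, and depth limits it mainly through the count minimum. The 72 called genes became 157 with a mean of at least 50, 39 with at least 200, 746 with at least 10 and 3878 with no minimum, and 7 at a fold over 2 and 378 at a less strict fold limit. The PBS pair alone gave 328 and the H2O2 pair alone 275. TMM factors, total counts, size factors of all 8 libraries, a pseudocount of 5 and removal of the GC and length trend gave 63 to 74, sharing 57 to 71 genes with the 72. In the edgeR fit, 412 genes passed, 418 with DESeq2 size factors, 425 with a mean of at least 10 and 338 without a filter. It gave 0 without the treatment term, and then 1 with each library left out in turn, in which the lone library of an arm is assumed to vary like the others. With the treatment term, leaving out a library left no residual degrees of freedom, so no test was made. DESeq2's Wald test gave 74 and a fit of all 8 libraries 30. The fits share the same libraries, and the cause of these differences was not tested beyond their construction. For the difference between lines, 476 genes became 479 with a mean of at least 50, an alternative chosen after seeing the data. Of 729 recomputed log2 fold changes of named genes, 701 moved by less than their counting error and 28 by more, all 28 with the GC and length trend removed, and of 275 recomputed list medians 256 moved by less than the spread between pairs. No called gene changed direction. No paired analysis beyond the pairing by treatment was possible because the labels give no replicate numbers.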

Other observations

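Several called genes belong to none of the groups above. G0S2, an inhibitor of the lipase ATGL, had 100.2 in vector cells and 200.3 in PAGE4 cells with PBS, and 555 and 1124 with H2O2, so that both H2O2 and PAGE4 went with a higher count. AFAP1-AS1, a long non-coding RNA antisense to AFAP1, had 288 in vector cells and 472 in PAGE4 cells with PBS, and 168 and 462 with H2O2, while AFAP1 itself had log2 fold changes of −0.01 with PBS and −0.14 with H2O2, and whether the authors' counting used strand is not stated. LGALS1, which encodes galectin-1, had 1619 in vector cells and 2867 in PAGE4 cells with PBS, and 1231 and 2029 with H2O2, and CAPG, an actin-capping protein, 404 in vector cells and 682 in PAGE4 cells with PBS, and 473 and 813 with H2O2. NTN4, a netrin of basement membranes, rose with 0.65 with PBS and 0.71 with H2O2. SNCG, gamma-synuclein, rose with 0.85 with PBS and 1.02 with H2O2 and NEURL1, a ubiquitin ligase of the Notch pathway, with 1.38 with PBS and 0.97 with H2O2. Among genes called lower, MUC3A, a membrane mucin with repeats shared by MUC3B, had −0.60 with PBS and −1.14 with H2O2, EML1, a microtubule-binding protein, −0.82 with PBS and −1.01 with H2O2, and DTX4, a regulator of Notch, −0.65 with PBS and −0.85 with H2O2. MT-TG, the mitochondrial glycine tRNA, had 165 and 286 normalized counts in vector and PAGE4 cells with PBS and 2.1 and 15.8 with H2O2. Its H2O2 pair rests on 2 reads in vector cells, under the floor of 3 counts, and 15 in PAGE4 cells, so the size of that fold is uncertain. CH507-513H4.4, not matched to the annotation, had 143 in vector cells and 318 in PAGE4 cells with PBS, and 128 and 348 with H2O2.

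Lists with small but common shifts were also seen. Of 15 mitochondrial genome transcripts, 11 were lower in both pairs and 1 was higher, against 27.1% and 31.5% of all well-counted genes. By the edgeR test 5 fell, against 1.35% of all, and DESeq2 called 0. The medians were −0.18 with PBS and −0.11 with H2O2. MT-ND4, a subunit of complex I, had log2 fold changes of −0.25 with PBS and −0.11 with H2O2, MT-ATP6 −0.25 with PBS and −0.12 with H2O2 and MT-CYB −0.19 with PBS and −0.18 with H2O2. Cytosolic ribosomal protein genes were higher in both pairs in 38 of 59 and lower in 4, with medians of 0.04 and 0.07, and proteasome subunits in 20 of 31 and 1, with medians of 0.02 and 0.11. Of 16 snoRNA host genes, 12 were higher in both pairs and 0 lower. Mitosis genes had a median of 0.00 with PBS and 0.24 with H2O2, and CCNB1, the cyclin of mitotic entry, rose with 0.25 with PBS and 0.63 with H2O2. In DNA repair, neither the homologous recombination list of 30 genes nor the excision repair list of 32 had a member past 1.5-fold in both pairs. Over all well-counted genes, 0.286% were called higher and 0.319% lower, so the absence of calls in lists of this size is near the background. RAD50, which tethers DNA ends, fell with −0.32 with PBS and −0.23 with H2O2 (adjusted p 0.0343 by edgeR).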
